A study of Rattus norvegicus with 32 samples.

Results

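Among 16 somata taken from single cultured rat hippocampal neurons, 7 held 10 or more read counts of Gad1, the gene of the GABA-synthesizing enzyme GAD67, and 9 held fewer than 10. These groups are called here the Gad1 somata (neurons 7, 8, 9, 13, 18, 25 and 28) and the other somata (neurons 11, 14, 15, 20, 21, 22, 23, 26 and 27). The groups were chosen by the measured Gad1 count of the soma, so the Gad1 difference between somata is a description and carries no test. All other genes, the depth of the libraries, the number of genes detected, and the separate dendrite libraries of the same neurons were compared between the groups. The soma nearest above the threshold was that of neuron 25, with 116 Gad1 counts, and the nearest below it were those of neuron 26, with 8, and neuron 20, with 2.

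The series holds 32 libraries, 1 from the soma and 1 from the dendrites of each of 16 neurons. Every neuron was wildtype, from the hippocampus of Sprague Dawley rats at embryonic day 18, was kept for 15 days in culture, and received no treatment named in the labels. Both groups therefore share strain, age, genotype and culture time, and all cells carry the label of pyramidal neurons. Each compartment was aspirated with its own micropipette, and polyadenylated RNA was amplified in 3 rounds of in vitro transcription before stranded paired-end sequencing. The neurons came from more than 1 culture and day, and which neuron came from which is not given in the sources used here, so culture or day and group cannot be told apart, and p-values measure only the spread between these neurons. The soma of 11 of the 16 neurons correlated best with the dendrites of its own number, over deviations of 7100 genes from the compartment means. Of the other 5, the soma of neuron 7 correlated best with the dendrites of neuron 9 (r = 0.158 against 0.0562 with its own), and that of neuron 9 with the dendrites of neuron 7 (0.0969 against 0.00969). The somata of neurons 11, 14 and 22 correlated best with the dendrites of neurons 14, 18 and 11 (0.0820, 0.0707 and 0.0580 against -0.0178, 0.0522 and 0.0370), and the soma of neuron 8 with its own (0.147). Soma and dendrites are paired by their numbers as labelled throughout. Main results are also given without neurons 7, 8 and 9, a set taken from earlier results of these data, all 3 of which are in the Gad1 group.

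Neurons that release GABA make it from glutamate with 2 enzymes, GAD67 (Gad1) and GAD65 (Gad2), and load it into vesicles with the vesicular GABA transporter (Slc32a1, VGAT). Hippocampal interneurons arise in the ventral forebrain under transcription factors such as Dlx1, Dlx2, Dlx5 and Lhx6, and subsets make somatostatin (Sst), neuropeptide Y (Npy), reelin (Reln), calretinin (Calb2) or cholecystokinin (Cck). Pyramidal neurons are glutamatergic, load glutamate with Slc17a7 or Slc17a6 (VGLUT1 and VGLUT2), and are marked by the transcription factor Neurod6 (NEX). Gad1 transcripts alone do not define an interneuron, since some glutamatergic hippocampal cells, such as granule cells, are known to carry low levels of them.

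Gad1 levels in the 7 Gad1 somata spanned a wide range. In CPM, counts per 1000000 gene counts of a library, the somata of neurons 7, 8, 9, 13, 18, 25 and 28 held 144, 11160, 545, 39.1, 99.8, 132 and 261. The raw counts in the same order were 2162, 150960, 8865, 807, 1996, 116 and 2069. The soma of neuron 8 stood far above the rest, and the 116 counts of neuron 25 came from the shallowest soma library of all, so that its CPM lay close to the group's median of 144. Gad1 was at 0 counts in 7 of the 9 other somata, which by counting error alone allows a level of up to between 0.121 and 0.327 CPM (3 counts of each library's total). The other somata of neurons 20 and 26 held 0.324 and 1.92 CPM, so no soma lay between 1.92 and 39.1 CPM.

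Gad1 was also higher in the dendrites of the neurons with Gad1 somata, in libraries that the grouping did not use. The dendrites of neurons 7, 8, 9, 13, 18, 25 and 28 held 14654, 10361, 873, 5151, 22099, 11 and 70 Gad1 counts. In the dendrites of the 9 other neurons the counts were 17779 in neuron 15, 92 in neuron 20, 37 in neuron 26, 13 in neuron 21, 2 in neuron 27 and 0 in neurons 11, 14, 22 and 23. All 7 dendrites of the Gad1 group and 4 of the 9 others reached 10 counts. In CPM the groups overlapped through neuron 15 alone. Every other dendrite library of the other group lay at or below 32.02 CPM, while the lowest of the Gad1 group held 48.0 CPM. That lowest value was 11 counts in the dendrites of neuron 25, the shallowest library of all, with 229149 gene counts. In raw counts it lay below neurons 20, 26 and 21 as well, so this gap in CPM rests on few counts. The median was 269 CPM (range 48.0 to 1833) against 0.0818 CPM (range 0 to 923). The mean difference was 6.91 on the log2 CPM scale with a prior count of 2 (8.05 ± 2.39 against 1.14 ± 4.49, SD, n = 7 and 9; two-sided exact permutation test over 11440 arrangements, p = 0.003934, Benjamini-Hochberg adjusted p = 0.01573 over the 4 tests of this kind). Without neurons 7, 8 and 9 it was 6.26 (exact permutation p = 0.02378). These dendrite libraries of the Gad1 group also held more genes with 5 or more counts (5644 ± 1047 against 4171 ± 1009, SD). Of 17 astrocyte markers, a median of 11 per library (4 to 12) against 6 (2 to 9) reached 10 counts, with summed levels of 120 to 3289 CPM (median 1196) against 183 to 1017 CPM (median 423). Among the 12 astrocyte markers tested in dendrites 10 were higher (median log2 fold change 1.07 beside -0.21 over all genes, and 0.40 without neurons 7, 8 and 9) and 0 were called. The part of these measures in the Gad1 difference was not tested. Within neurons, paired by number as labelled, dendrites held more Gad1 CPM than the soma in neurons 7, 13 and 18 and less in neurons 8, 9, 25 and 28.

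**Figure D1:**
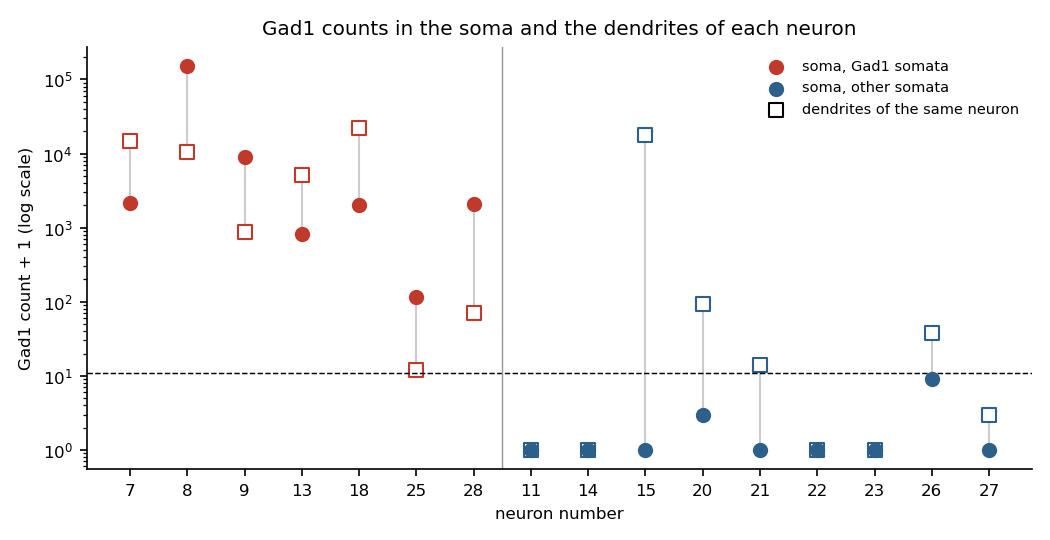
Gad1 count plus 1 (log axis) in the soma (filled circle) and dendrites (open square) of each of the 16 neurons, with the Gad1 group at the left and the other neurons at the right; the dashed line marks 10 counts, the threshold applied to the somata. All 7 dendrite libraries at the left reach 10 counts, and at the right neuron 15 combines 0 counts in its soma with 17779 in its dendrites.

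Depth did not differ beyond the spread between neurons, whereas the ratio of gene counts to spike-in counts was higher in the Gad1 somata. Gene counts per soma library were 13464300 ± 6994670 (SD, n = 7; 878125 to 20651002) in the Gad1 somata and 15214100 ± 7462630 (SD, n = 9; 4166973 to 24721811) in the others, a difference of -0.40 on the log2 scale (exact permutation p = 0.5951). Without neuron 25, whose soma library was the shallowest, the difference was 0.18 with the sign turned. Genes with 5 or more counts numbered 5444 ± 1384 (SD, n = 7; 3193 to 6648, median 6351) against 4421 ± 966 (SD, n = 9; 3367 to 5874, median 3869). That difference of 1022 genes did not pass the test (exact permutation p = 0.1034, adjusted p = 0.1379). The 4 somata with the most genes detected were all Gad1 somata, those of neurons 7, 8, 9 and 13, and the soma with the fewest, that of neuron 28, was one as well. With every library thinned to 4166973 counts, which leaves out neuron 25, the numbers were 5045 ± 1317 (n = 6) and 4023 ± 776 (n = 9; exact permutation p = 0.08472). Without neurons 7, 8 and 9 the difference in genes detected was 261 genes (exact permutation p = 0.7007), and without neuron 28 it was 1397 (exact permutation p = 0.02378).

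The spike-ins are synthetic RNAs of known sequence, and more gene counts per spike-in count mean that more of the sequenced material came from the cell, if equal amounts were added. On the log2 scale the ratio was 8.87 ± 1.49 (SD, n = 7) in the Gad1 somata and 7.15 ± 0.70 (SD, n = 9) in the others. The difference of 1.72 passed the exact permutation test (p = 0.01014, adjusted p = 0.02028), in a comparison added after the data were seen. Leaving out 1 neuron at a time kept the difference between 1.42 and 2.13. Spike-ins took 0.0605% to 1.16% of the counts in the Gad1 somata and 0.304% to 1.37% in the others, so the groups overlapped. Without neurons 7, 8 and 9 the difference was 0.91 (exact permutation p = 0.1441). The part of this ratio in the gene differences below was not tested.

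**Figure D2:**
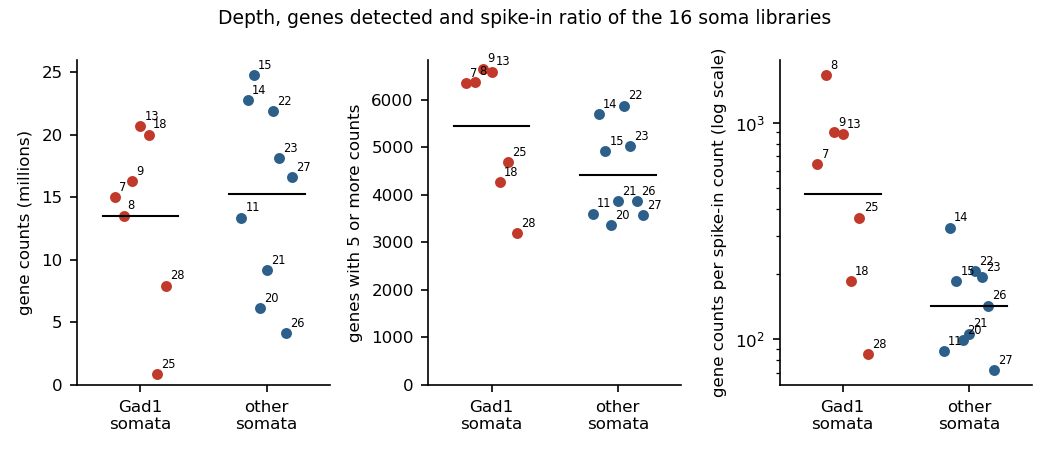
Gene counts in units of 1000000 (left), genes with 5 or more counts (middle) and gene counts per spike-in count on a log axis (right) for the 7 Gad1 somata and 9 other somata, each point labelled with its neuron number; lines are arithmetic means at the left and middle and the geometric mean at the right. The somata of neurons 7, 8, 9 and 13 stand highest in genes detected and in the spike-in ratio, and the soma of neuron 25 is lowest in gene counts.

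The remaining genes of the GABAergic program did not follow Gad1 from soma to soma. Gad2 counts reached 10 in 2 of the 7 Gad1 somata, with 3147 in neuron 8 and 605 in neuron 9, and in none of the other somata, where the highest count was 1. Slc32a1 reached 10 counts in those same 2 Gad1 somata, at 11051 in neuron 8 and 3451 in neuron 9, but also in 4 of the 9 other somata, at 696 in neuron 11, 1768 in neuron 15, 216 in neuron 21 and 1172 in neuron 22. The soma of neuron 25 held 6 counts of Slc32a1 (6.83 CPM), and those of neurons 13, 18 and 28 held none. Slc32a1 was therefore carried by somata on both sides of the Gad1 threshold. Its fitted log2 fold change, Gad1 somata over the others, was 2.81 ± 2.19 (SE; edgeR p = 0.213, adjusted p = 0.9997), and without neurons 7, 8 and 9 it was -4.62.

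Transcription factors of ventral forebrain origin were likewise held by a few somata. Dlx1 had 13354 counts in neuron 8, 2163 in neuron 9 and 7554 in neuron 15, and at most 1 elsewhere. Lhx6, the factor of interneurons from the medial ganglionic eminence, was found only in neurons 8 (976 counts) and 9 (379 counts) among the 16 somata. Dlx5 was found in the same somata, with 94 and 797 counts, and Dlx2 was at 0 in all 16. Over the 23 interneuron transcription factors in the files, 10 or more counts were reached by 2 to 10 genes per Gad1 soma (median 5) and by 1 to 7 per other soma (median 3). Over all genes the medians at 10 counts were 6015 per Gad1 soma and 3652 per other soma, so more genes of any kind were detected in the Gad1 group. Only 4 of the 23 passed the filter on low counts, 2 higher and 2 lower, and none was called.

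Markers of interneuron subtypes were also uneven within each group. Sst reached 10 counts in 5 of the 7 Gad1 somata, with 155 in neuron 7, 495 in neuron 8, 13944 in neuron 9, 538 in neuron 13 and 42 in neuron 18, and in 1 of the 9 others, with 61 in neuron 11. The Sst groups overlapped, since neurons 18, 25 and 28 lay below neuron 11 (2.10, 0 and 0 against 4.56 CPM). Reln held 9738 counts in neuron 8, 1169 in neuron 9 and 4406 in neuron 13, and in the other somata 613 in neuron 11, 1564 in neuron 15 and 14 in neuron 22. Its fitted log2 fold change was 3.64 ± 2.13 (SE; edgeR p = 0.102, adjusted p = 0.9997). Npy reached 10 counts in 1 soma, that of neuron 18, with 14. Calb2 was at 10 counts or more in 4 of 7 Gad1 somata and 6 of 9 others, and Cck in 4 of 7 and 5 of 9, so neither leaned to the Gad1 group. Of 36 subtype genes in the files, 6 could be tested, 2 higher and 4 lower.

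Counts of the whole set per soma show how uneven the Gad1 group was. The list of GABA synthesis and transport genes holds 7 genes other than Gad1, among them Aldh5a1, which breaks down GABA. Aldh5a1 reached 10 counts in neurons 7, 8, 9, 13, 18 and 25 (744, 553, 1602, 173, 1663 and 78) and in 3 of the 9 other somata. Of the 7 genes, 10 or more counts were reached by 5 in neuron 9, by 4 in neuron 8 and by 2 in neurons 7 and 13. In neurons 18 and 25 only 1 of the 7 did so, Aldh5a1, and in neuron 28 the number was 0. Among the other somata the highest number was 3, in neuron 15. That soma, with Gad1 at 0 counts, held Slc32a1 at 71.5 CPM, Dlx1 at 306 CPM and Reln at 63.3 CPM. The dendrites of neuron 15 held Gad1 at 17779 counts, Slc32a1 at 5506, Reln at 73845 and Dlx1 at 22. Neuron 15 was singled out after its values were seen.

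**Figure D3:**
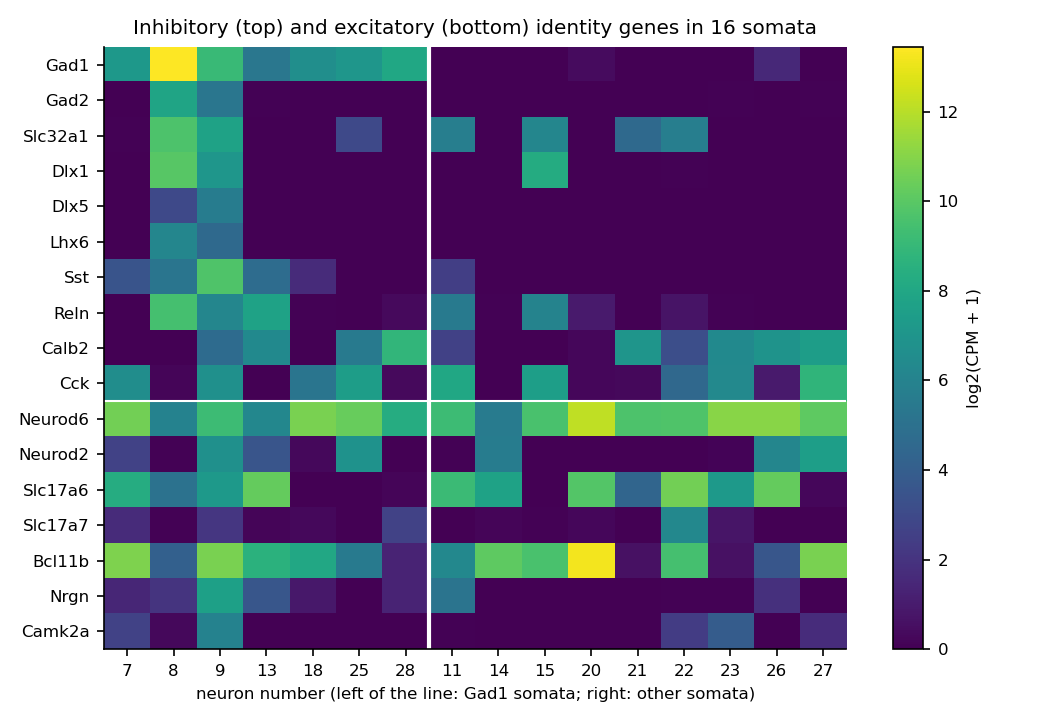
Levels as log2(CPM + 1) of 10 inhibitory genes (above the horizontal line) and 7 excitatory genes (below it) in the 16 somata, each column a neuron, the 7 Gad1 somata left of the vertical line. Only the columns of neurons 8 and 9 are bright over most inhibitory rows, the column of neuron 15 at the right shares Slc32a1, Dlx1 and Reln with them, and Neurod6 is present in every column.

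Excitatory markers were present in both groups. Neurod6 reached 10 counts in all 16 somata, at 61.8 to 1717 CPM (median 589) in the Gad1 somata and 47.1 to 4578 CPM (median 869) in the others. The fitted log2 fold change of Neurod6 was -1.31 ± 0.78 (SE; edgeR p = 0.107, adjusted p = 0.9997), so it did not differ beyond the spread between neurons. The lowest Gad1 soma for Neurod6 was that of neuron 8, with 836 counts, and the lowest of the others was that of neuron 14, with 1072. Gad1 and Neurod6 transcripts were thus found side by side in all 7 Gad1 somata, including those of neurons 8 and 9.

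The glutamate transporter gene Slc17a6 reached 10 counts in 4 of 7 Gad1 somata and 7 of 9 others (log2 fold change -1.44 ± 1.65, SE; edgeR p = 0.393). Slc17a7 did so in 3 of 7 and 2 of 9, with 1662 counts in neuron 22 and at most 55 in any other soma. The soma of neuron 18 had Gad1 at 1996 counts, Slc17a6 at 0 and Neurod6 at 34350. Camk2a reached 10 counts in 2 of 7 and 3 of 9 somata, Neurod2 in 4 and 3, and Bcl11b, a cortical and hippocampal transcription factor, in 7 and 7. Nrgn, the calmodulin-binding protein neurogranin, reached 10 counts in 6 of 7 Gad1 somata and 2 of 9 others at a fitted log2 fold change of 2.32 ± 1.97 (SE; edgeR p = 0.251), which was -0.62 without neuron 9. Tbr1 passed 10 counts in no soma. Of 20 excitatory neuron genes tested, 5 were higher and 15 lower in the Gad1 somata, 0 were called, and the median log2 fold change was -0.53 beside -0.21 over all genes. Scaled by library totals that median was 0.05 beside 0.11, and with limma-voom 0.29 beside 0.72. The lowest p among them belonged to Lmo4, a LIM-domain cofactor, at 1099 ± 883 against 2760 ± 2403 CPM (SD; edgeR p = 0.00856, adjusted p = 0.9997).

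Across all genes no difference passed the adjusted threshold. Of 5227 genes tested, Gad1 left out, edgeR's quasi-likelihood test called 0 at an adjusted p of 0.05 (0.0% of genes tested). At an unadjusted p of 0.05 there were 153 genes (2.93%), 94 higher in the Gad1 somata (1.8%) and 59 lower (1.13%). DESeq2 called 19 genes, 15 higher and 4 lower, and limma-voom called 5, all higher. Both of these called Klhl21, Lace1, Ydjc and Zbtb7a, which are named here after the calls were seen. These 4 genes reached 10 counts in 6 or 7 of the 7 Gad1 somata and in 1 or 2 of the 9 others. They passed the filter on low counts chiefly through the Gad1 somata. With no filter on low counts, edgeR called 828 of 11954 genes, 770 of which reached 10 counts in 3 or fewer somata. The fitted log2 fold change lay above 0 for 43.2% of genes (median -0.21), and for 53.55% (median 0.11) when libraries were scaled by their totals in place of TMM, so small shifts of many genes in 1 direction depend on the scaling.

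The 5 genes of lowest p among those higher in the Gad1 somata reached 10 counts in 5 to 7 of the 7 Gad1 somata and in 1 or 2 of the 9 others, without passing the adjusted threshold. These 5 genes thus passed the filter on low counts chiefly through the Gad1 somata. Ndufaf4, an assembly factor of respiratory complex I, held 0 to 157 CPM (median 52.4) in the Gad1 somata and 0 to 0.884 CPM (median 0) in the others. It reached 10 counts in 6 of 7 against 2 of 9 somata, with a fitted log2 fold change of 8.5 ± 2.0 (SE; edgeR p = 0.000397, adjusted p = 0.591). Fitted fold changes of genes at 0 in most libraries depend on the prior count, so the shares of somata describe them better. Klhl21, an adaptor of a cullin ubiquitin ligase, held 1.45 to 172 CPM (median 30.0) in the Gad1 somata and 0 to 0.995 CPM in the others, 7 of which were at 0. The ranges of Klhl21 did not overlap (log2 fold change 8.0 ± 2.0, SE; edgeR p = 0.000539, adjusted p = 0.591). Klhl21 reached 10 counts in 7 of 7 and 1 of 9 somata. It passed the filter on low counts only through the Gad1 somata, so its values are a description.

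Rab9a, a small GTPase of late endosomes, reached 10 counts in 6 of 7 and 2 of 9 somata, at 0.123 to 434 CPM (median 33.9) against 0 to 1.5 CPM. Ncam2, a neural cell adhesion molecule, did so in 5 of 7 and 2 of 9, at 0 to 1031 CPM (median 19.6) against 0 to 2.15 CPM. Zbtb7a, a zinc-finger repressor, did so in 6 of 7 and 2 of 9, at 0 to 123 CPM (median 22.1) against 0 to 1.82 CPM. The fitted log2 fold changes were 7.98 ± 2.01 for Rab9a, 8.97 ± 2.36 for Ncam2 and 6.97 ± 1.98 for Zbtb7a (SE; edgeR adjusted p = 0.591, 0.739 and 0.9997). Besides Klhl21, the ranges of 2 further genes did not overlap between the groups, Tmem160 and Ydjc, which were picked out after their values were seen. All 3 (0.0574% of genes tested) were higher in the Gad1 somata, with Tmem160 at 562 ± 100 against 71.8 ± 111 CPM (SD; edgeR p = 0.0182, adjusted p = 0.9997). Ydjc reached 10 counts in 7 of 7 and 1 of 9 somata, so it too passed the filter only through the Gad1 somata.

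Among genes lower in the Gad1 somata, the lowest p included both all-or-none genes and abundant ones. RGD1312005, known here by its locus name only, was at 0 to 0.665 CPM in the 7 Gad1 somata and reached 10 counts in 7 of the 9 others (0 to 867 CPM, median 221), with a fitted log2 fold change of -10.98 ± 2.41 (SE; edgeR p = 0.000165, adjusted p = 0.591). The somata of neurons 11 and 20 lay within the Gad1 range, so the groups overlapped. Hexim2, an inhibitor of the elongation factor P-TEFb, was at most 0.222 CPM in the Gad1 somata and reached 10 counts in 6 of 9 others (log2 fold change -10.16 ± 2.53, SE; edgeR adjusted p = 0.591). Ppp2r3a, a regulatory subunit of protein phosphatase 2A, held 0 to 6.43 CPM (median 1.13) against 0 to 603 CPM (median 136), at -6.40 ± 1.86 (SE; edgeR adjusted p = 0.9997). RGD1312005 and Hexim2 passed the filter on low counts only through the other somata, so their values are a description.

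Dpysl2 and Vdac3 differed instead as graded levels of genes detected in all 16 somata. Dpysl2 encodes CRMP2, a tubulin-binding protein of growing axons and dendrites, and held 728 to 2645 CPM (median 1079) in the Gad1 somata and 1910 to 7278 CPM (median 2221) in the others. Only the soma of neuron 25 overlapped with the others. The log2 fold change of Dpysl2 was -1.87 ± 0.44 (SE; edgeR p = 0.000341, adjusted p = 0.591) and stayed between -1.98 and -1.49 when 1 neuron at a time was left out. Vdac3, a porin of the outer mitochondrial membrane, held 440 to 1293 CPM (median 733) against 912 to 3562 CPM (median 1742), a log2 fold change of -1.52 ± 0.42 (SE; edgeR p = 0.00147, adjusted p = 0.962).

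**Figure D4:**
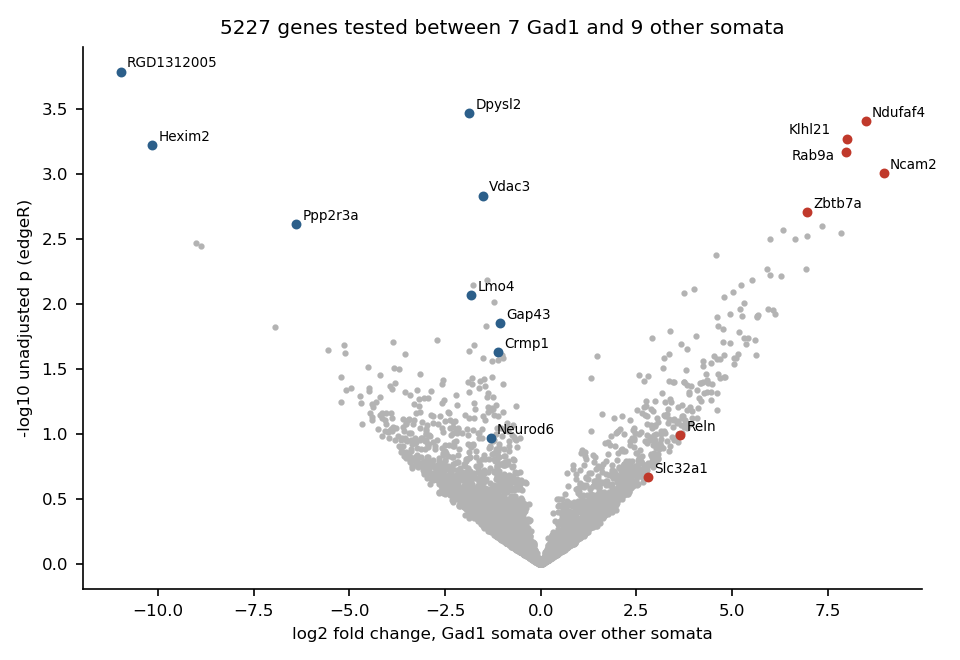
Each point is 1 of 5227 genes, with the edgeR log2 fold change of the 7 Gad1 somata over the 9 other somata on the x axis and -log10 of the unadjusted p on the y axis; named genes are red where higher and blue where lower. None passes an adjusted p of 0.05, and Slc32a1, Reln and Neurod6 lie well below the top of the plot.

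**Figure D5:**
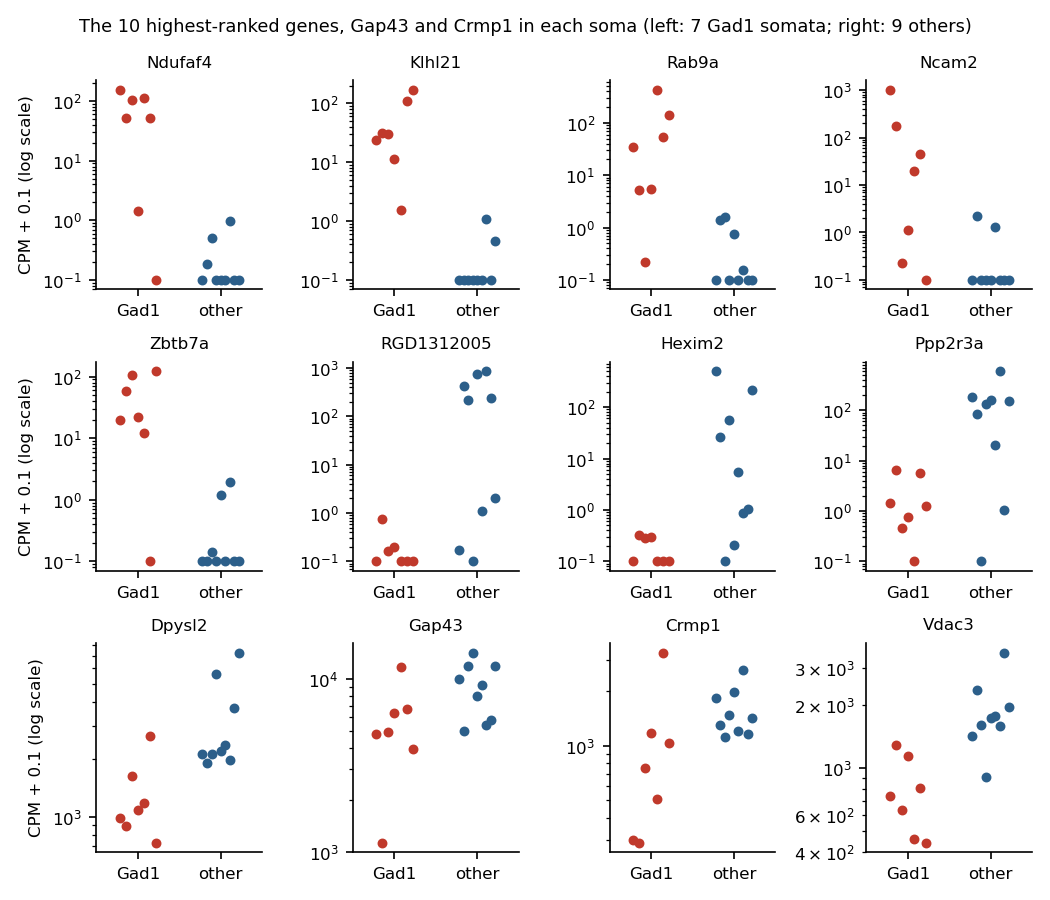
CPM plus 0.1 on log axes in each of the 7 Gad1 somata (red) and 9 other somata (blue) for the 5 genes of lowest p in each direction and for Gap43 and Crmp1. The upper rows hold genes at or near 0 in most somata of 1 group, such as Ndufaf4 and RGD1312005, and the bottom row holds genes present in all 16 somata, such as Dpysl2, whose groups overlap through neuron 25.

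The growth cone is the motile tip of a growing neurite. Of its genes, all 9 tested had a log2 fold change below 0, beside 2967 of all 5227 genes tested. With library totals, thinned counts, or depth or genes detected as a covariate, 7 or 8 of 9 did so. In the main fit the list's median was -1.05 beside -0.21 over all genes, and 0 were called. An unadjusted p under 0.05 was reached by Dpysl2 (above), Gap43 and Crmp1, against 1.13% of all genes in that direction. Gap43, a membrane phosphoprotein of growth cones, held 1126 to 11740 CPM (median 4952) against 4989 to 14200 CPM (median 9217), at -1.05 ± 0.39 (SE; edgeR p = 0.0141, adjusted p = 0.9997). Crmp1, a relative of Dpysl2, held 289 to 3283 CPM (median 755) against 1121 to 2639 CPM (median 1432), at -1.11 ± 0.46 (SE; edgeR p = 0.0234, adjusted p = 0.9997). The Gap43 values were lowest in the soma of neuron 8, and the highest Crmp1 value of all was in the Gad1 soma of neuron 25, so neither gene separated the groups. With library totals the list's median was -0.67 (1 member higher) beside 0.11 over all genes, and with limma-voom -0.73 (0 higher) beside 0.72. With depth as a covariate it was -1.04 (1 higher) beside -0.09, and with thinned counts -0.91 (1 higher) beside -0.09. With genes detected as a covariate it was -0.65 (2 higher) beside -0.39, and without neurons 7, 8 and 9 it was -0.69 beside -0.38. In these last 2 settings the list thus lay nearer to all genes than in the main fit. The fold of Cotl1, a member that binds actin filaments, turned to 0.21 without neuron 11.

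Housekeeping lists had medians of -0.44 to 0.02 beside -0.21 over all genes, a value that was 0.11 with library totals and 0.72 with limma-voom. Of 77 cytosolic ribosomal protein genes, 19 were higher and 58 lower (median -0.44), and with library totals 40 were higher (median 0.06 beside 0.11). With limma-voom 31 of the 77 were higher (median -0.17 beside 0.72), beside 66.48% of all genes. The place of this list relative to all genes thus depended on the setting. The lowest p among the ribosomal genes was that of Rps23, at 693 ± 182 against 1049 ± 419 CPM (SD), and counts of ribosomal genes may be shared with near-identical copies. Of 32 proteasome subunits 9 were higher and 23 lower (median -0.44, -0.13 with library totals and -0.10 with limma-voom), with Psma2, a subunit of the core particle, at a log2 fold change of -1.77 ± 0.60 (SE; edgeR p = 0.00714, adjusted p = 0.9997). Of 58 nuclear genes of the respiratory chain 30 were higher and 28 lower (median 0.02), and the lowest p was that of Sdhd, a membrane anchor of complex II (-1.74 ± 0.87, SE; edgeR p = 0.0580). Sdhc, of the same complex, went the other way (2.13 ± 1.13, SE; edgeR p = 0.0723). Of 23 tubulin, microtubule-associated and neurofilament genes 6 were higher and 17 lower, with a median of -0.42 that was -0.11 with library totals and 0.02 with limma-voom.

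Synaptic and channel genes showed no common direction. Of 10 GABA receptor and receptor-scaffold genes tested 4 were higher and 6 lower (median -0.30), led by Gabarap, a receptor-trafficking protein, at 276 ± 123 against 545 ± 292 CPM (SD). Of 4 glutamate receptor genes 3 were higher and 1 lower, of 16 synaptic vesicle genes 9 and 7, and of 4 chloride transporter genes 1 and 3. Of 14 voltage-gated channel genes 6 were higher and 8 lower. Scn1a, the sodium channel typical of fast-spiking interneurons, had the lowest p of these (log2 fold change 3.89 ± 1.85, SE; edgeR p = 0.0471, adjusted p = 0.9997). The Scn1a value rested on the soma of neuron 8, at 69.2 CPM, and was -0.45 without it. Immediate early genes split into 7 higher and 7 lower, neuropeptide and dense core vesicle genes into 6 and 5, and migration and maturity genes into 5 and 11. Id2, an inhibitor of basic helix-loop-helix factors, led the last list at 228 ± 494 against 12.4 ± 18.2 CPM (SD; edgeR p = 0.0597), and reached 10 counts in 5 somata of each group. Stress genes split into 3 higher and 7 lower, with Ddit4, a growth inhibitor induced by stress, at 29.2 ± 33.2 against 188 ± 247 CPM (SD; edgeR p = 0.0590).

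Several defining markers of glia and other cells were absent, while summed marker levels overlapped between the groups. The microglial genes Cx3cr1, Aif1 and Csf1r, the endothelial gene Cldn5 and the astrocyte glutamate transporter Slc1a2 were at 0 counts in all 16 somata. Of the 17 astrocyte markers in the files, 3 to 10 per Gad1 soma (median 9) and 1 to 7 per other soma (median 5) reached 10 counts. Their summed level was 78.8 to 839 CPM (median 352) against 65.8 to 762 CPM (median 321). Gfap was at 0 in 3 of 7 Gad1 somata and 9 of 9 others, with at most 120 counts, and Aqp4 at 0 in 5 of 7 and 8 of 9. Over all genes, a median of 6015 per Gad1 soma and 3652 per other soma reached 10 counts. Of 6 astrocyte markers tested, 3 were higher and 3 lower (median log2 fold change -0.42 beside -0.21 over all genes), and 0 were called. The group with more astrocyte markers per soma thus also had more genes at 10 counts and the higher spike-in ratio. The part of these markers in the gene differences was not tested. Endothelial, mural and fibroblast markers summed to 1.30 to 611 CPM (median 51.8) against 0.0879 to 322 CPM (median 4.15), and markers of dividing progenitors to 40.7 to 204 CPM (median 63.7) against 0.109 to 666 CPM (median 8.67).

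In the dendrite libraries of the same neurons edgeR called 0 of 5159 genes (0.0% of genes tested) at an adjusted p of 0.05, with 380 (7.37%) at an unadjusted p of 0.05. DESeq2 called 6, which were Dgke, Gpr107, Phf7, Slc35e1, Sst and Zfp142 (named after the calls were seen), and limma-voom called 0. Of the 380, 304 were lower (5.89%) and 76 higher (1.47%), while the fitted log2 fold change lay above 0 for 43.5% of all genes tested. The dendrites of neuron 20 stood apart with a TMM factor of 0.106, and without that neuron 146 genes had an unadjusted p under 0.05. The cytosolic ribosomal list had 0 of 76 members higher and a median of -2.62, which was -0.43 without neuron 20, and the growth cone list had a median of -1.91, which was -0.40 without it.

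The interneuron peptide gene Sst reached 10 counts in 4 of 7 dendrite libraries of the Gad1 neurons and 2 of 9 others, beside 5 of 7 and 1 of 9 in somata. In the dendrites it had 5505 counts in neuron 7, 3591 in neuron 8, 172 in neuron 9 and 58 in neuron 13, with 11 and 10 in the dendrites of neurons 11 and 21 of the other group. The fitted log2 fold change in dendrites was 8.0 ± 2.2 (SE; edgeR p = 0.0011, adjusted p = 0.5615), and Sst was too sparse to pass the filter in somata. Phf7, a PHD-finger protein picked out after its values were seen, reached 10 counts in the dendrites of 7 of 7 Gad1 neurons and 0 of 9 others. It passed the filter on low counts only through the group in which it is high, so its values are a description. Only Phf7 and Ttyh1 had ranges that did not overlap in dendrites (0.0388% of genes tested).

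The genes of lowest p in somata were also looked up in dendrites. Ndufaf4 reached 10 counts in 5 of 7 and 5 of 9 dendrite libraries, Klhl21 in 3 and 3, and RGD1312005 in 4 and 5. Hexim2 reached 10 counts in 3 of 7 dendrites of the Gad1 neurons and 0 of 9 others. Dpysl2 held 1532 ± 823 against 2148 ± 1449 CPM in the dendrites (SD; medians 1527 and 1536), at a log2 fold change of -2.11 ± 0.92 (SE; edgeR p = 0.0303, adjusted p = 0.578) that was -0.80 ± 0.52 without neuron 20 (edgeR p = 0.138). In dendrites Vdac3 had a median of 996 against 813 CPM, and Neurod6 of 576 against 586 CPM. Whether the group difference itself differed between dendrites and soma was tested in 1 model with the neuron as a block. Of 7100 genes 0 were called (0.0% of genes tested), with 213 (3.0%) at an unadjusted p of 0.05.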

How the data were processed

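Polyadenylated RNA from 16 somata and from the dendrites of the same 16 neurons was sequenced. The authors deposited whole-number counts per gene for each library, unnormalized, with 17216 genes by symbol and 92 spike-in transcripts; the build was rn6 per the submitters' processing notes, and the aligner, annotation release and counting settings are not given in the sources used here. Reads carry no molecular identifiers, so amplified copies are counted and intervals cover counting error only.

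The groups follow the Gad1 count of the soma. The members, the 26 gene lists and the tests were chosen with earlier results of these data known. CPM are counts per 1000000 gene counts. Genes were filtered with filterByExpr (minimum count 10), scaled by TMM and tested with edgeR 4.0.16 (quasi-likelihood, robust) in R 4.3.3, with Benjamini-Hochberg adjustment over all genes tested and Gad1 left out. Tested genes held 93.9% to 97.9% of the gene counts per soma. Single values were compared by two-sided exact permutation tests. Alternatives used DESeq2 1.42.0, limma 3.58.1 (voom), other scalings, filters and covariates, counts thinned to one depth, and libraries left out. The scripts were tested on simulated data. Since fewer than 5 genes per direction passed, the text names the 5 of lowest p in each direction, up to 4 members of each list by p, and a fixed set of 24 identity genes. Dlx6 was not analysed here, and some named genes are not reported here.

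Total gene counts ran from 878125 to 24721811 per soma library and from 229149 to 24439768 per dendrite library. The series text pairs soma and dendrites of 1 number as 1 cell, which is where the block comes from. The ratio to spike-in counts was added after the data were seen.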

Additional observations from a re-analysis of the deposited data

Results flagged for a closer look

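In 110 groups of 7 or 9 libraries examined, 17 had 1 library far from the rest, by the gap to its nearest neighbour relative to the group's range, on the log scale for counts and CPM. The nominal chance rate is about 1 in 20 groups, and it was not measured for groups with many values at 0, as many of these are. In gene counts this was the Gad1 soma of neuron 25, with 878125. In the other somata, Gad1 stood at 1.92 CPM in neuron 26, Dlx1 at 306 CPM in neuron 15, Sst at 4.56 CPM in neuron 11, Neurod6 at 47.1 CPM in neuron 14, Slc17a7 at 76.0 CPM in neuron 22 and Tbr1 at 0.324 CPM in neuron 15. Aldh5a1, which breaks down GABA, stood at 354 CPM in neuron 27, and Sdhd at 3.04 CPM in neuron 23. In the Gad1 somata, Zbtb7a stood at 0 CPM in neuron 25, RGD1312005 at 0.665 CPM in neuron 8, Npy at 0.70 CPM in neuron 18, Aldh5a1 at 0 CPM in neuron 28 and the AMPA receptor gene Gria2 at 1.30 CPM in neuron 18. Scn1a stood at 69.2 CPM in neuron 8, Scg2, a dense core vesicle protein, at 0.252 CPM in neuron 28 and Sdhd at 15.2 CPM in neuron 18.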

How the results depend on the processing

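The count of 0 called genes between somata held under DESeq2 size factors, library totals, a stricter filter, depth or genes detected as a covariate, thinned counts, without somata of 1 to 99 Gad1 counts, without neurons 7, 8 and 9, and without each neuron in turn. It was 828 with no filter, 19 with the DESeq2 Wald test and 5 with limma-voom, and in dendrites 2 with no filter and 6 with DESeq2. Of the 828, 14 were among the 5227 genes of the filtered fit. The cause of the difference between tools was not tested. In the fit of both compartments, with the neuron as a replicate block, 0 genes were called, and without the block also 0, with 644 at an unadjusted p of 0.05 against 213. Gad1 in dendrites ranged from 6.42 to 7.95 without each neuron in turn (exact permutation p from 0.000777 to 0.01079), and was 7.92 with a prior count of 0.5 and 6.32 with TMM-scaled sizes. Depth ranged from -0.61 to 0.18 and genes detected from 821.5 to 1397 without each neuron in turn; the spike-in ratio was 0.91 without neurons 7, 8 and 9.

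Signs of single genes turned as follows, all with an adjusted p of 0.261 or more where one was given. Against 2.81, Slc32a1 was -2.83 with genes detected as a covariate and -4.62 without neurons 7, 8 and 9. Reln was -1.60 with genes detected as a covariate. Calb2 (0.30) was -0.55 with limma-voom, -0.029 with depth as a covariate, and -1.92 to 0.90 without each neuron in turn. Neurod2 was 1.84 and Bcl11b 0.42 with limma-voom. Nrgn was -0.55 without neurons 7, 8 and 9 and -0.62 to 5.96 without each neuron in turn. Aldh5a1 (-0.49) was 0.39 with library totals, 3.91 with DESeq2, 4.32 with limma-voom, 3.12 with genes detected as a covariate, and -0.66 to 5.38 without each neuron in turn. Cotl1 was 0.22 with DESeq2 and -1.37 to 0.21 without each neuron in turn. Gria2 (0.68) was -0.94 with limma-voom and -0.80 without neurons 7, 8 and 9. Scn1a was -0.71 with DESeq2, -0.39 without neurons 7, 8 and 9, and -0.45 to 4.18 without each neuron in turn.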
